A study of Mus musculus with 6 samples.

Results

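The mammalian Hox genes encode homeodomain transcription factors that lie in 4 clusters, HoxA to HoxD, on separate chromosomes. Members at the same place in different clusters share a paralogue number, low numbers mark the 3′ end, and in the embryo low-numbered genes act toward the head and high-numbered genes toward the tail. In the female reproductive tract the posterior HoxA genes are known for patterning the oviduct, uterus and vagina along the Müllerian duct. Here they were followed in newborn mouse ovary. Members were all genes whose symbol in the platform annotation is Hoxa, Hoxb, Hoxc or Hoxd followed by digits only. The rule found 38 genes on 57 probes, of 19057 genes and 45281 probes in all. It took no measured value into account, but this family and the gene lists below were chosen with earlier results of the data known.

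Total RNA of whole ovaries was measured on 6 Illumina MouseWG-6 2.0 arrays of 1 slide, 2 wildtype (arrays 2 and 3 by their titles) and 4 Sohlh1/Sohlh2 double knockout (arrays 1, 2, 3 and 5). Mice of both groups were newborn and of C57BL/6/129S6/SvEv strain. The double knockout removes Sohlh1 and Sohlh2, basic helix-loop-helix factors of the germ line, from every cell of the animal. Labels do not say whether arrays stand for separate animals, litters or pools, and the p-values given here therefore cover array-to-array spread, which may be technical. With 2 wildtype arrays, precision is low throughout.

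The arrays detected 20124 to 20594 probes each. Sohlh1 had log2 levels of 12.89 and 13.01 in wildtype and 9.40 to 9.81 in double-knockout ovary on its brighter probe (log2 fold change -3.29, adjusted p = 3.41e-05), and Sohlh2, with 1 probe, was detected on 1 wildtype array and 0 double-knockout arrays. Whether the probes fall inside the deleted exons was not analysed here. As to the labelled tissue, 11 of 11 pregranulosa markers and 9 of 10 oocyte and germ cell markers were detected on at least 2 arrays. The oocyte and germ cell markers had a summed signal of 12332 to 14030 in wildtype and 2966 to 4529 in double-knockout ovary. This sum is of linear signals and follows its brightest members, in wildtype foremost Kit (12.49 and 12.41 on the log2 scale). It does not hold for each member alike. In bulk tissue, fewer cells of a type and less RNA per cell cannot be told apart.

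Promoter sequences are shown because SOHLH proteins belong to the basic helix-loop-helix class, whose members bind the E-box CANNTG. RefSeq promoters on GRCm38.p6, running from 250 bases before to 50 bases after a start site, matched 22 of the 38 genes with 24 sequences. Those of 4 genes compared between genotypes are given 5′ to 3′ with E-boxes in capitals. Hoxa2 and Hoxd3 had the smallest unadjusted p of HoxA and HoxD, and Hoxa5 and Hoxb4 are genes whose wildtype arrays both lay above all double-knockout arrays. The genes shown were thus picked by their genotype values. Hoxb5 and Hoxc9, with the smallest unadjusted p of HoxB and HoxC, had no matched promoter and enter no motif count.
Hoxa2, chr6:52164782-52165081, minus strand: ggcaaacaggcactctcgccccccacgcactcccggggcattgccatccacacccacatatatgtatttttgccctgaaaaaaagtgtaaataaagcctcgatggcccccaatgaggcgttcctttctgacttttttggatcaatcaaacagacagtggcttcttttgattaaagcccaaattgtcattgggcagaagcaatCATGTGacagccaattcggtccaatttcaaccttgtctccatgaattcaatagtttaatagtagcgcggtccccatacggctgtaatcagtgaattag
Hoxa5, chr6:52204538-52204837, minus strand: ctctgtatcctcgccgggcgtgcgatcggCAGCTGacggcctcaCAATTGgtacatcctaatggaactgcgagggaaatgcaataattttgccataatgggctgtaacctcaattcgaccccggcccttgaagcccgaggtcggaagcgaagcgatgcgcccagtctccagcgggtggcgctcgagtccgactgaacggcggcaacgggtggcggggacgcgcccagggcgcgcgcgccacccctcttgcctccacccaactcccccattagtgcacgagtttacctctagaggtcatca
Hoxb4, chr11:96318017-96318316, plus strand: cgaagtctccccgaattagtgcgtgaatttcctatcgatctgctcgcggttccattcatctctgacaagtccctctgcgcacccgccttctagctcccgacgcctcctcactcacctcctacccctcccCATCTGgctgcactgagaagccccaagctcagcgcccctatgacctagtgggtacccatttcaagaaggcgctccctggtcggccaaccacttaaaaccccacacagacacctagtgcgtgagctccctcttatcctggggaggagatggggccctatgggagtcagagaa
Hoxd3, chr2:74711743-74712042, plus strand: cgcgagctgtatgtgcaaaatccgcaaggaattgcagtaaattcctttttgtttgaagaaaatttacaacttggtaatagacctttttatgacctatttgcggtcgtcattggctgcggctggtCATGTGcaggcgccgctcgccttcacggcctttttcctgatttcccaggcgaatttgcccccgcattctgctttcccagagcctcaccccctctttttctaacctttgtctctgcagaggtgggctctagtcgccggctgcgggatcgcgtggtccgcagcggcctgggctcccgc
The E-box pattern is the same on both strands, and both motifs were searched on both strands. The E-box occurred in 17 of the 24 Hox promoters, 70.8%, and in 72.3% of all 32851 promoters of the same length. The motif TGATNNAT, part of the site bound by PBX and HOX proteins together, occurred in 4 of the 24, 16.7%, against 8.85% of all promoters, with matches of this motif in the windows of Hoxa2, Hoxb1, Hoxb8 and Hoxd11. Matches describe the letters in these windows and show no binding.

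Detection came first, since a probe can be compared between genotypes only where its signal rises above the array's negative controls (detection p under 0.05). In newborn ovary, 18 of 38 Hox genes had a probe detected on all 6 arrays, 6 on some arrays and 14 on none. By probe, 22 of 57 were detected on all 6 arrays and 26 on none, where all 45281 probes gave 37.9% and 45.7%. Detected genes were spread over every cluster, with 5 in HoxA, 5 in HoxB, 3 in HoxC and 5 in HoxD.

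The genes detected on all 6 arrays lay mostly between paralogue numbers 2 and 10, where 17 of 27 genes were detected on all arrays, 3 on some and 7 on none. At the 3′ end, Hoxb1, a gene of the hindbrain, was detected on no array and Hoxd1 on 1. At the 5′ end, of 9 genes numbered 11 to 13, 1 was detected on all arrays, 2 on some and 6 on none. In HoxA the detected genes were Hoxa2, Hoxa4, Hoxa5, Hoxa7 and Hoxa13, while Hoxa3, Hoxa6, Hoxa10 and Hoxa11 were detected on none. In HoxB they were Hoxb2, Hoxb4, Hoxb5, Hoxb6 and Hoxb7. In HoxC they were Hoxc6, Hoxc9 and Hoxc10, and in HoxD Hoxd3, Hoxd4, Hoxd8, Hoxd9 and Hoxd10.

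**Figure D1:**
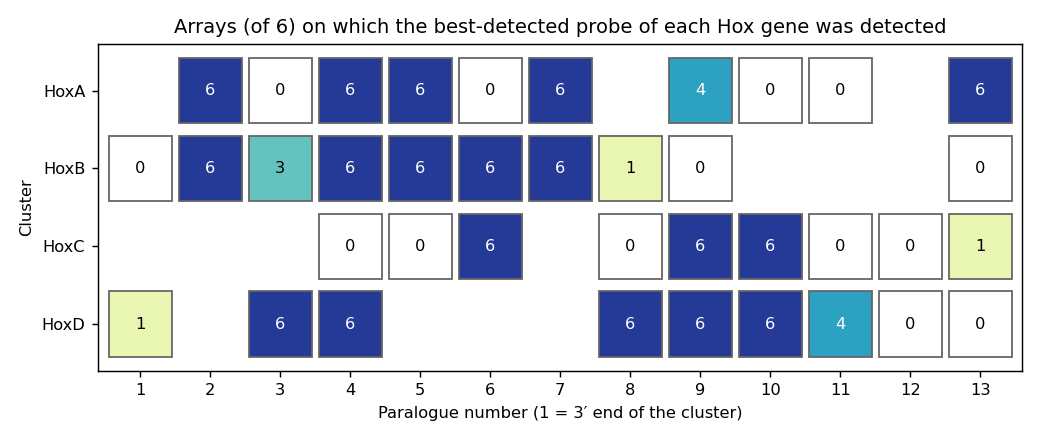
Each square is a Hox gene, placed by cluster (rows) and paralogue number (columns), with the number of arrays, of 6, on which its best-detected probe had a detection p under 0.05. Squares of 6 lie mostly between numbers 2 and 10, and Hoxa13 is the exception at the 5′ end; places without a square were not analysed here.

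Several genes known for the uterus and the tail end of the body were at background. Hoxa10, which acts in the uterus at implantation, had 2 probes detected on no array, with detection p-values no lower than 0.233. Hoxa11, another gene of the uterus, had a lowest detection p of 0.312, Hoxb13, a prostate gene, 0.395 and Hoxc12 0.379. Such probes were not detectable above the negative controls here, which does not show that the transcripts are absent. Hoxc8 (lowest detection p 0.0524), Hoxd13, a gene of the digits (0.0588), and Hoxc4 (0.0641) lay just outside the threshold, and Hoxc13, a gene of hair follicles, and Hoxd1 (0.0449 each) lay just inside it on 1 array each.

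Several genes had probes that disagreed in detection. Hoxa13, which shapes the limb ends and the lower reproductive tract, was detected on all 6 arrays by 1 of 3 probes, with log2 levels of 5.18 and 5.55 in wildtype and 5.03, 5.60, 5.21 and 5.50 in double-knockout ovary. Its other probes stayed between 4.25 and 4.66 and were detected on none, against lowest detected signals of 4.72 to 4.76 on these arrays. One Hoxd11 probe was detected on 4 arrays and the other on none. Hoxb3, a hindbrain gene, had 4 probes detected on 3, 2, 1 and 0 arrays, and Hoxa9, a gene of blood progenitors and of the oviduct, had 3 probes detected on 4, 3 and 0 arrays. Annotated extents of Hoxa3 overlap those of Hoxa4, Hoxa5 and Hoxa6, and the same holds for Hoxb3 with Hoxb4, Hoxd3 with Hoxd4 and Hoxd10 with Hoxd11, and whether probes there read more than 1 transcript was not analysed here.

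The comparison of genotypes asked which of these genes differ between double-knockout and wildtype ovary. Among 27 Hox probes of 21 genes that could be tested (detected on at least 2 of 6 arrays), 1 fell in the double knockout and 0 rose, where 7.27% of 21981 tested probes were called, 3.62% lower and 3.65% higher. The probe that fell was Hoxb5, at 2.33-fold. The other 26 did not pass, although 10 of the 27 had an unadjusted p under 0.05, against 24.5% of all tested probes. No tested Hox probe had passed the filter through the wildtype arrays alone, and 1, of Hoxb3, had passed through the double-knockout arrays alone. The count of 1 called probe in 27 does not exceed the background share. In simulated data the fit called 8% of 1.5-fold and 30% of 2-fold changes, so a probe that did not pass may still differ.

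Hoxb5 is known for the enteric nervous system and the position of the shoulder girdle. Its raw signal was 930.5 and 784.1 in wildtype and 289.0, 497.9, 400.7 and 225.9 on double-knockout arrays 1, 2, 3 and 5. After background correction and quantile normalization its log2 levels were 9.55 and 9.49 in wildtype and 8.23, 8.84, 8.51 and 7.62 in double-knockout ovary. Both wildtype arrays lay above all 4 double-knockout arrays, and array 5 was the lowest. The means were 9.52 ± 0.04 (SD, n = 2) and 8.30 ± 0.52 (SD, n = 4), a log2 fold change of -1.22 ± 0.29 SE with adjusted p = 0.0394 by limma. The direction held when any array was left out (-1.40 to -0.99), but the call ended without wildtype array 2 (adjusted p = 0.241), wildtype array 3 (0.157) or double-knockout array 1 (0.0903) and with no filter (0.128). With 2 and 4 arrays the smallest two-sided p that exact permutation allows is 0.0667, and the call depends on limma's moderated variance.

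**Figure D2:**
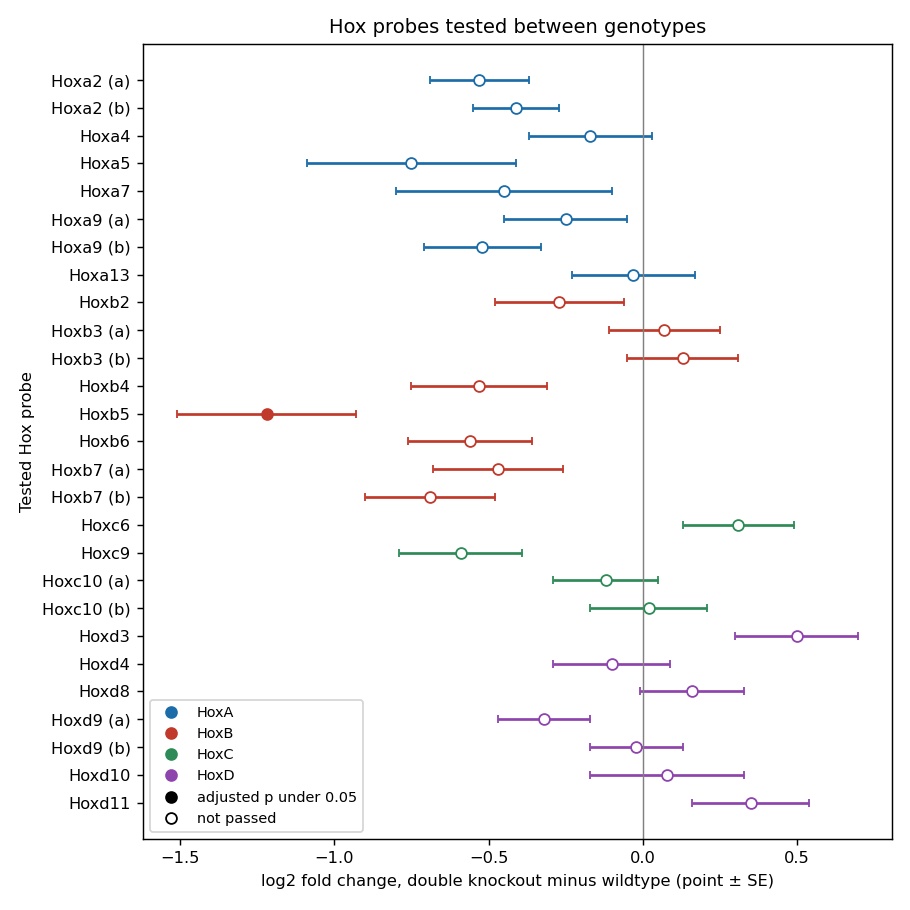
Each point is a tested Hox probe with its log2 fold change (double knockout minus wildtype, horizontal axis) and SE, ordered by cluster and paralogue number, with a and b for 2 probes of a gene. Hoxb5 at -1.22 is the single filled point (adjusted p under 0.05), and the other values lie between -0.75 and 0.50.

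The neighbours of Hoxb5 gave smaller differences that did not pass. Hoxb4, which expands blood stem cells when supplied in excess, had log2 levels of 5.71 and 5.72 in wildtype and 5.14, 5.67, 5.13 and 4.79 in double-knockout ovary (log2 fold change -0.53 ± 0.22 SE, adjusted p = 0.177). Hoxb6 gave 5.79 and 5.98 in wildtype and 5.56, 5.39, 5.46 and 4.90 in double-knockout ovary (log2 fold change -0.56 ± 0.20 SE, adjusted p = 0.124). In both genes the wildtype arrays lay above all double-knockout arrays. Hoxb7, whose promoter is much used to mark the ureteric bud, was read by 2 probes. The first gave 9.48 and 9.51 in wildtype and 8.84, 9.12, 8.91 and 8.36 in double-knockout ovary (log2 fold change -0.69 ± 0.21 SE, adjusted p = 0.076), with the groups apart. The second gave 9.50 and 9.74 in wildtype and 9.09, 9.52, 9.23 and 8.75 in double-knockout ovary (log2 fold change -0.47 ± 0.21 SE, adjusted p = 0.204), and here double-knockout array 2 overlapped wildtype array 2. Hoxb2, a hindbrain gene, had overlapping groups at 6.95 and 7.41 in wildtype and 7.06, 7.24, 6.79 and 6.58 in double-knockout ovary (log2 fold change -0.27 ± 0.21 SE, adjusted p = 0.487).

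Hoxb3 and Hoxb8 stayed near background. The Hoxb3 probes detected on 3 and on 2 arrays were both dim. The first gave 4.72 ± 0.25 (SD, n = 2) in wildtype and 4.80 ± 0.21 (SD, n = 4) in double-knockout ovary, a log2 fold change of 0.07 ± 0.18 SE (adjusted p = 0.84). The second gave 4.54 and 4.54 in wildtype and 4.81, 4.92, 4.59 and 4.37 in double-knockout ovary. It was detected on 0 wildtype arrays, where its level is only a bound. Its fitted value of 0.13 is therefore no measured fold, though it enters the counts over 27 probes and the plot of fold changes. Hoxb8, detected on 1 array, was not tested, like Hoxb1, Hoxb9 and Hoxb13, which were detected on none.

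HoxA probes all had negative values, none of which passed. Hoxa2, the selector gene of the second pharyngeal arch, was read by 2 probes. One gave 6.66 and 6.70 in wildtype and 6.23, 6.38, 5.97 and 6.01 in double-knockout ovary (log2 fold change -0.53 ± 0.16 SE, adjusted p = 0.0778), the smallest unadjusted p of the cluster (0.00882). The other gave 6.75 and 6.98 in wildtype and 6.50, 6.54, 6.45 and 6.32 in double-knockout ovary (log2 fold change -0.41 ± 0.14 SE, adjusted p = 0.115). On both probes the 2 wildtype arrays lay above all 4 double-knockout arrays. Hoxa5, which is needed for the lung and trachea, had raw signals of 1521.0 and 1391.6 in wildtype and 928.1, 1065.7, 757.2 and 434.5 on double-knockout arrays 1, 2, 3 and 5. On the log2 scale the wildtype levels were 10.28 and 10.36, and the double-knockout levels ran from 8.70 to 10.09 (log2 fold change -0.75 ± 0.34 SE, adjusted p = 0.223). Its double-knockout arrays ran from just under wildtype on array 1 to the lowest level on array 5. The interval of the Hoxa5 difference, -1.52 to 0.03 at 95% confidence, takes in 0 as well as a change larger than that of Hoxb5.

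Hoxa7, a gene of the thoracic vertebrae, showed 9.64 and 9.59 in wildtype and 9.19, 10.01, 8.98 and 8.46 in double-knockout ovary (log2 fold change -0.45 ± 0.35 SE, adjusted p = 0.463), with double-knockout array 2 above both wildtype arrays. Hoxa4, a gene of the neck vertebrae, gave 6.97 and 7.41 in wildtype and 6.71, 7.29, 7.09 and 6.98 in double-knockout ovary (log2 fold change -0.17 ± 0.20 SE, adjusted p = 0.638). The detected Hoxa13 probe gave a log2 fold change of -0.03 ± 0.20 SE. In each of these 3 the groups overlapped. For Hoxa9, the probe detected on 2 wildtype and 2 double-knockout arrays gave 5.13 and 5.05 in wildtype and 4.55, 4.59, 5.04 and 5.17 in double-knockout ovary (log2 fold change -0.25 ± 0.20 SE, adjusted p = 0.495), and the probe detected on 2 wildtype and 1 double-knockout arrays gave 5.36 and 4.86 in wildtype and 4.41, 4.51, 4.85 and 4.61 in double-knockout ovary (log2 fold change -0.52 ± 0.19 SE, adjusted p = 0.13). The groups overlapped on the first and were apart on the second, and both probes lie close to the lowest detected signals.

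HoxC went both ways. Hoxc9, which sets thoracic motor neuron identity, gave 10.10 and 9.78 in wildtype and 9.32, 9.76, 9.20 and 9.11 in double-knockout ovary (log2 fold change -0.59 ± 0.20 SE, adjusted p = 0.112). Its groups were apart by a narrow gap, between 9.78 on wildtype array 3 and 9.76 on double-knockout array 2. Hoxc6, a thoracic gene that also acts in the mammary gland, gave 10.39 and 10.89 in wildtype and 10.70 to 11.06 in double-knockout ovary (log2 fold change 0.31 ± 0.18 SE, adjusted p = 0.348), with overlapping groups. Hoxc10, a lumbar gene of the spinal cord, had 2 probes of opposite sign, -0.12 ± 0.17 and 0.02 ± 0.19 (SE). The first gave 5.88 and 5.63 in wildtype and 5.81, 5.60, 5.35 and 5.79 in double-knockout ovary, the second 6.35 and 5.89 in wildtype and 6.01, 6.14, 5.96 and 6.43 in double-knockout ovary, and groups overlapped on both.

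HoxD values centred near 0. Hoxd3, which shapes the first neck vertebrae, was the only tested Hox probe with both wildtype arrays below all double-knockout arrays, at 4.97 and 4.96 in wildtype and 5.73, 5.04, 5.69 and 5.41 in double-knockout ovary (log2 fold change 0.50 ± 0.20 SE, adjusted p = 0.173). Its wildtype levels stood just above the lowest detected signals, and its raw signals ran from 69.7 to 87.3. Hoxd11, which acts in the forearm and the kidney, gave 4.63 and 4.86 in wildtype and 5.38, 5.16, 4.74 and 5.12 in double-knockout ovary (log2 fold change 0.35 ± 0.19 SE, adjusted p = 0.292) on its detected probe, which 1 wildtype and 3 double-knockout arrays detected. Hoxd8 gave 8.22 and 8.05 in wildtype and 8.56, 8.35, 8.19 and 8.09 in double-knockout ovary (log2 fold change 0.16 ± 0.17 SE, adjusted p = 0.596), and the groups overlapped for it as for Hoxd11.

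Hoxd10, a lumbar gene of motor neurons, gave 8.90 and 8.06 in wildtype and 8.60, 8.21, 8.82 and 8.61 in double-knockout ovary (log2 fold change 0.08 ± 0.25 SE, adjusted p = 0.874). Its wildtype arrays differed from each other by more than any pair of double-knockout arrays did. Hoxd4 gave 6.61 and 6.19 in wildtype and 6.43, 6.11, 6.08 and 6.57 in double-knockout ovary (log2 fold change -0.10 ± 0.19 SE, adjusted p = 0.8). Hoxd9, a gene of the lower spine and forelimb, was read by 2 probes that differed in size. One gave 7.82 and 8.04 in wildtype and 7.81, 7.61, 7.47 and 7.56 in double-knockout ovary (log2 fold change -0.32 ± 0.15 SE, adjusted p = 0.238) with the groups apart, and the other 9.07 and 9.34 in wildtype and 9.28, 9.27, 9.02 and 9.17 in double-knockout ovary (log2 fold change -0.02 ± 0.15 SE, adjusted p = 0.953) with overlap. Hoxd12 and Hoxd13 were detected on no array and not tested.

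By cluster, the 22 probes detected on all 6 arrays divided as follows. All 6 HoxA probes (5 genes) and all 6 HoxB probes (5 genes) had negative log2 fold changes, with medians of -0.43 and -0.54. In HoxC 2 of 4 and in HoxD 3 of 6 were negative, with medians of -0.05 and 0.03. Over all probes detected on 6 arrays, 49.9% were negative and the median was 0.00. With every tested member included, 19 of 27 were negative, made up of 8 of 8 in HoxA, 6 of 8 in HoxB, 2 of 4 in HoxC and 3 of 7 in HoxD. The medians were then -0.43 for HoxA, -0.50 for HoxB, -0.05 for HoxC and 0.08 for HoxD. Both wildtype arrays lay above all double-knockout arrays for 10 of 27 probes and below them for 1, where all tested probes gave 17.0% and 17.8%, or 34.8% in either direction. Probes of 1 gene share a target and neighbouring genes share a chromosome region, so these counts are a description with no test, and the difference between clusters was not tested. The median of all tested probes was 0.00 in the fit.

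**Figure D3:**
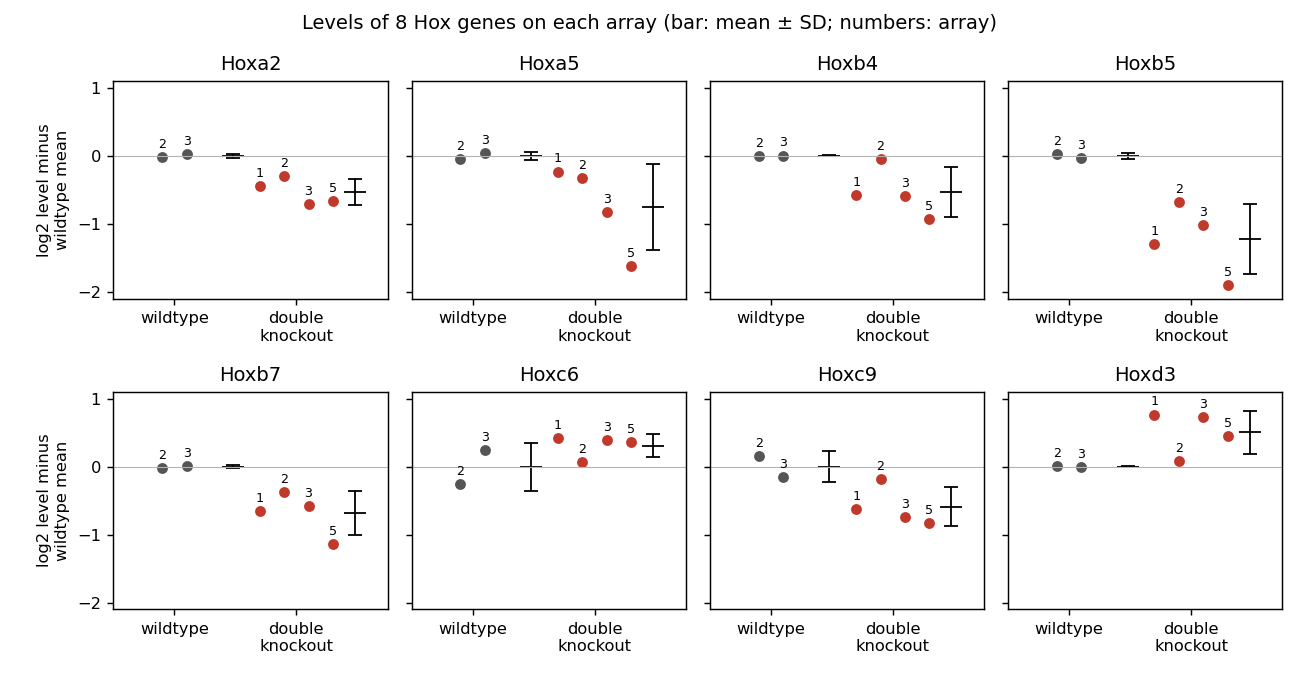
Points are single arrays, numbered as in the titles, with the log2 level of 1 probe of each of 8 Hox genes minus its wildtype mean (vertical axis) for wildtype and double-knockout ovary; bars beside the points are mean ± SD. Hoxb5 shows the 4 double-knockout arrays below wildtype, array 5 is the lowest for Hoxa5, Hoxb4, Hoxb5, Hoxb7 and Hoxc9, and Hoxd3 shows them above. The 8 probes are a selection, mostly with the groups apart, whereas 16 of all 27 tested Hox probes overlapped. For Hoxb7 the probe with the groups apart is shown, and its other probe overlapped.

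The double-knockout arrays differed among themselves in HoxA and HoxB. Set against the wildtype mean of each probe, the median of the 8 tested HoxB probes was -0.43, -0.08, -0.41 and -0.89 on arrays 1, 2, 3 and 5. HoxA gave -0.44, -0.31, -0.34 and -0.52, HoxC -0.02, -0.07, -0.28 and 0.17, and HoxD 0.12, 0.06, 0.00 and 0.14. Array 5 was thus the lowest for HoxA and HoxB and the highest for HoxC and HoxD. It was the lowest double-knockout array for 7 of 8 HoxB probes and for 12 of all 27, where 28% of all tested probes had their lowest value there. Without array 5 the medians were -0.37 for HoxA and -0.38 for HoxB, and Hoxb5 kept its call (-0.99, adjusted p = 0.0231).

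**Figure D4:**
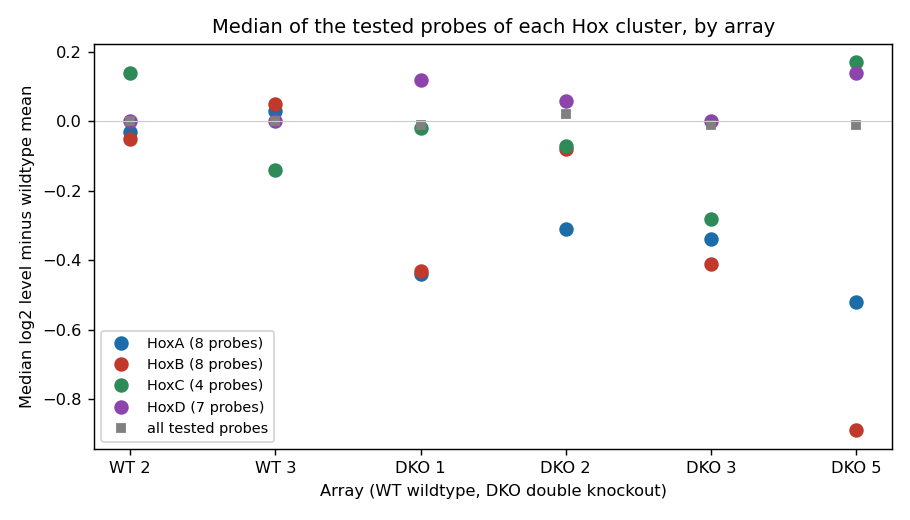
Each point is the median, over the tested probes of a Hox cluster, of the log2 level minus the wildtype mean (vertical axis) on 1 array (horizontal axis), with all tested probes as grey squares. HoxB lies between -0.89 and -0.08 on the double-knockout arrays and HoxD between 0.00 and 0.14.

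Stromal and duct markers varied over the same arrays. Calls in either direction made up 8.38% of 12163 tested genes, the share beside which each list count is to be read. Of 10 tested stromal and mesenchymal markers, 0 passed, 7 were negative and the median was -0.27. Their summed signal was 44219 to 46420 in wildtype and 36995 to 45010 in double-knockout ovary, lowest on array 5 and highest on array 2. Arrays 1 and 3 were close to array 5, at 37778 and 38521. Sums are of linear signals and follow the brightest members, here Acta2 and Dcn. Of the double-knockout arrays, Acta2 was lowest on array 1 (13.53) and Dcn on array 3 (13.56), so array 5 was not the lowest for either. Gli1 and Postn were detected on no array. Wnt5a, a signal of mesenchyme and of the Müllerian tract, gave 10.56 and 10.50 in wildtype and 10.04, 9.98, 9.51 and 9.20 on arrays 1, 2, 3 and 5 (log2 fold change -0.85 ± 0.24 SE, adjusted p = 0.0641). Tcf21, a transcription factor of gonadal mesenchyme, pointed the other way, with 10.45 and 10.49 against 11.15, 10.98, 10.90 and 10.58 (0.43 ± 0.17 SE, adjusted p = 0.166), and Pdgfra (0.13) and Pdgfrb (0.22), receptors of mesenchymal cells, were also positive. Of 8 tested markers of oviduct, Müllerian and mesonephric duct epithelium, 1 fell, 1 rose and 6 did not pass (median -0.45), against the 8.38% over all tested genes. Cdh16, a cadherin of duct epithelium, fell by 1.06 on the log2 scale (± 0.24 SE, adjusted p = 0.033) with its lowest level, 7.98, on array 5, and Gata3, a transcription factor of the mesonephric duct, rose by 0.80 ± 0.15 SE (adjusted p = 0.0145). The Cdh16 call ended without wildtype array 2 (0.137), wildtype array 3 (0.195) or double-knockout array 3 (0.0548) and with no filter (0.103), and that of Gata3 without wildtype array 2 (0.151) or 3 (0.0832). The summed signal of the duct list was 1105 to 1355 in wildtype and 583 to 974 in double-knockout ovary. It was lowest on array 5, with array 3 close at 600. Cdh16, the brightest member, gave the largest part of this sum, which is therefore no separate reading of the list. Of the duct list, Pax2, Emx2, Wnt9b, Epcam and Dach2 were detected on no array. The part of stromal or duct cells in the Hox values was not tested.

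Markers of other cell types gave the following counts, again beside 8.38% called over all tested genes. Among 11 pregranulosa markers 2 rose, Runx1 (0.67) and Amhr2 (0.63), and 9 did not pass. Of the 11 values 0 were negative, and the median was 0.43. Their summed signal was 5623 to 7865 in wildtype and 9163 to 10642 in double-knockout ovary. The Amhr2 call was lost when any single array was left out (adjusted p 0.0583 to 0.349) and with no filter (0.0755), and that of Runx1 without wildtype array 2 (0.16) or 3 (0.113) or double-knockout array 1 (0.0591). Of the oocyte and germ cell markers, 6 of 9 tested fell, led by Lhx8 (-3.74), Gdf9 and Zp3 (-2.73 each) and Kit (-2.31), and 3 did not pass. Those 3 were Dazl (-0.27, adjusted p = 0.491), Ddx4 (-0.40, adjusted p = 0.278) and Nobox (-0.40, adjusted p = 0.235). All 9 values were negative, with a median of -2.08. The Zp3 call ended without wildtype array 2 (0.181) or 3 (0.0854) and with no filter (0.095). Endothelial markers (0 of 5 called) had sums of 2019 to 2266 and 2226 to 2559, with Pecam1 and Cdh5, junction proteins of vessels, at 0.37 each (adjusted p = 0.177 and 0.188). Macrophage and leukocyte markers (0 of 3 called) had sums of 317 to 404 and 272 to 765, with Csf1r at -0.25 (adjusted p = 0.425) and Lyz2 at 0.32 (adjusted p = 0.7). Of the blood markers, 1 of 3 erythroid markers rose (Alas2, 1.35, adjusted p = 0.0405). This call was lost without either wildtype array, without double-knockout array 1 (adjusted p = 0.0764) or 3 (0.0635) and with no filter (0.135). Slc4a1 did not pass (3.72 ± 1.03 SE, adjusted p = 0.0628). It gave 7.31 and 6.18 in wildtype and 11.77, 7.65, 11.98 and 10.43 in double-knockout ovary. Hba-a1 stood at 0.09 (adjusted p = 0.741). Erythroid sums, mostly from Hba-a1, were 23546 to 25298 in wildtype and 26020 to 30408 in double-knockout ovary. The part of blood in other values was not tested. Among 6 kidney and adrenal markers 1 fell, Th, the enzyme of catecholamine synthesis, at least 7.3-fold lower (adjusted p = 3.41e-05). Th was detected on 2 wildtype and 0 double-knockout arrays. It thus passed the filter only through the group where it is high, and its call is no separate support. With either wildtype array left out, Th was not tested.

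Hox proteins bind DNA with partners of the TALE homeodomain class. All 8 cofactor genes with a probe were tested, of which 1 fell, 0 rose and 7 did not pass, against 8.38% over all tested genes, and the list median was 0.04. Meis2, the member that fell, had a mean log2 level of 10.91 ± 0.12 (SD, n = 2) in wildtype and levels of 10.18, 10.32, 10.20 and 9.84 in double-knockout ovary. Its fold change was -0.78 ± 0.17 SE on the log2 scale (adjusted p = 0.0268), with array 5 again the lowest, and the call ended without wildtype array 2 (0.216), wildtype array 3 (0.0993) or double-knockout array 1 (0.0618) and with no filter (0.0528). Meis1 gave 11.69 and 11.52 against 11.22, 11.37, 10.81 and 11.03 (-0.50 ± 0.18 SE, adjusted p = 0.124). Pbx3 pointed the other way, with 6.10 and 6.31 against 7.02, 6.61, 6.76 and 6.59 (0.54 ± 0.17 SE, adjusted p = 0.0831).

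Polycomb proteins keep Hox clusters silent and Trithorax proteins keep them active. Polycomb genes, 22 of which were tested, gave 2 that fell, 0 that rose and 20 that did not pass (median 0.01), close to the 8.38% over all tested genes. Pcgf5, a subunit of variant Polycomb complexes, gave 11.11 and 10.94 in wildtype and 9.76, 9.52, 10.07 and 9.71 in double-knockout ovary, 2.39-fold lower (-1.26 ± 0.17 SE, adjusted p = 0.00444, or 0.0761 without wildtype array 2). Bmi1, a core Polycomb subunit, gave 6.48 and 6.36 against 5.72, 5.44, 5.92 and 5.53 (-0.77 ± 0.17 SE, adjusted p = 0.0287), and its call ended without wildtype array 2 (0.215), wildtype array 3 (0.112), or double-knockout array 1 (0.063) or 2 (0.0505) and with no filter (0.0551). Of 11 Trithorax genes and demethylases 0 passed (median 0.06). The smallest unadjusted p-values there belonged to Kdm6b, which removes the Polycomb mark (0.69 ± 0.19 SE, adjusted p = 0.0619), and Kmt2a, the methyltransferase that maintains Hox expression (0.65 ± 0.20 SE, adjusted p = 0.0783).

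Among Hox-related homeobox genes outside the clusters, 5 of 13 could be tested, and 1 fell, 0 rose and 4 did not pass (median 0.05), against 8.38% over all tested genes. Gbx2, a gene of the boundary between midbrain and hindbrain, had log2 levels of 7.20 and 7.04 in wildtype and 5.57, 4.97, 4.92 and 5.95 in double-knockout ovary, 3.41-fold lower (-1.77 ± 0.28 SE, adjusted p = 0.0078). Both wildtype arrays lay well above the other 4, and the call ended without wildtype array 2 (0.101) or 3 (0.0611). Meox2 (0.64, adjusted p = 0.0591) and Meox1 (0.64, adjusted p = 0.0701), genes of the somites, did not pass. The Cdx genes, which activate Hox genes in the trunk of the embryo, were largely at background, with Cdx2 and Cdx4 detected on no array and Cdx1 at 0.05 ± 0.17 SE.

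Genes that flank the clusters were set beside them. The median of 10 tested flanking genes was -0.08, with 2 that fell and 8 that did not pass, against 8.38% over all tested genes. Skap1, an adaptor protein of T cells that is the next protein-coding gene beyond Hoxb1, gave 6.90 and 6.24 in wildtype and 4.72, 4.85, 4.56 and 5.14 in double-knockout ovary, 3.37-fold lower (-1.75 ± 0.22 SE, adjusted p = 0.00285). It was detected on 2 of 4 double-knockout arrays, so its change is against background in part, and it kept its call under every alternative run (smallest change -0.88). Hnrnpa1, a splicing factor beyond the Hoxc4 end of HoxC, gave 10.82 and 10.54 against 10.14, 10.13, 9.99 and 9.93 (-0.63 ± 0.15 SE, adjusted p = 0.0384), a call that was lost when any single array was left out (adjusted p 0.0533 to 0.296). Skap2 and Hibadh beside HoxA gave 0.26 and 0.40, Snx11 beyond Skap1 gave -0.27, and Mtx2 beside Hoxd1 gave -0.04, and none of these passed.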

How the data were processed

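Signal intensity per probe and array was taken from the raw table deposited by the authors, whose signals come from GenomeStudio per the submitters' processing notes (version not given in the sources used here) and show neither background subtraction nor normalization. The detection column deposited by the authors is a score that rises with signal; 1 minus this score was used as the detection p-value. The authors' own processed table gives linear intensity, quantile normalized and neither background-subtracted nor centred as the values show, in the same direction as the raw signals, with column medians of 59.6 for double-knockout array 1 and 59.5 for the other arrays; it served as an alternative. Background was corrected with normexp from detection p-values (nec, limma 3.58.1, R 4.3.3), with an offset of 16, quantile normalization and log2. Probes with detection p under 0.05 on at least 2 of 6 arrays, 21981 of 45281, were tested with lmFit and eBayes on all arrays without covariates, and adjusted by Benjamini-Hochberg at 0.05. Fold changes are double knockout minus wildtype on the log2 scale; after the offset they understate changes of dim probes. In lists, a gene stands for its tested probe of highest mean. Platform annotation gave 1 symbol for 34885 probes, several for 18 and none for 10378. A bound compares a group with the lowest detected signals of the arrays on which a probe was not detected. The fit was tested on simulated data, with 50 changed probes of each size. It called 8% of 1.5-fold, 30% of 2-fold, 96% of 4-fold and 94% of 8-fold changes, and 1.72% of its calls were false.

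Numbers in titles and descriptions pair no samples as far as stated: same-numbered arrays deviated together at r = -0.105 and -0.0319 by title and -0.111 and 0.105 by description. Per-array values were planned for Hox probes past the threshold, the probe of smallest p of each cluster and genes whose probes disagree, and are given for nearly all tested probes. From the other lists up to 4 called members, or the 2 of smallest p where none passed, were to be named. Meis1, Pbx3, Pdgfra, Pdgfrb, Acta2, Dcn, Dazl, Ddx4, Nobox, Slc4a1, Hba-a1, Meox1, Meox2, Cdx1, Skap2, Hibadh, Snx11 and Mtx2 were added after their values were seen. Members and lists were chosen with earlier results of these data known.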

Additional observations from a re-analysis of the deposited data

How the results depend on the processing

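Of 38 Hox genes, 18 were detected on all arrays at a detection p under 0.05 and 15 at a detection p under 0.01, and 21 were detected on at least 2 arrays. The number of Hox probes called, 1 in the fit, was 2 with the authors' values (Hoxb5 and Hoxb7), 0 with no filter, 0 with the title number as a replicate block and 0 to 3 when 1 array was left out (Hoxb4, Hoxb5 and Hoxc9 without double-knockout array 2, and 0 without wildtype array 2, wildtype array 3 or double-knockout array 1). It was 1 under the other alternatives run. Over all tested probes the count of 1598 became 881 with the title number as a replicate block, 1262 with the description number, and 224 to 1431 when 1 array was left out (224 and 431 on dropping wildtype arrays 2 and 3, and 856 on dropping double-knockout array 1). List members called were 19, and 6 to 17 when 1 array was left out (6 without wildtype array 2, 7 without wildtype array 3).

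With the title number as a replicate block Hoxb5 gave -0.84 (adjusted p = 0.0579), and with the description number -0.98 (0.032). List calls lost under both blocks were Meis2 (0.12 by title and 0.0782 by description), Hnrnpa1 (0.145 and 0.134) and Amhr2 (0.154 and 0.142). Bmi1 (0.116), Gata3 (0.0766), Runx1 (0.125) and Alas2 (0.0634) were lost by title only and Cdh16 (0.0557) by description only.

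Signs turned only for probes that were not called. The Hoxa13 probe gave 0.05 with 75th percentile scaling, which moved the median of all tested probes to 0.05, and 0.04 under the title block. The second Hoxc10 probe gave -0.07 under the title block and -0.04 under the description block, where Hoxd9 gave 0.07 and Hoxd10 -0.07. With 1 array left out, values ran from -0.21 to 0.16 for Hoxa13, -0.39 to 0.05 for Hoxa4, -0.10 to 0.25 for Hoxb3, -0.24 to 0.01 and -0.21 to 0.24 for the Hoxc10 probes, -0.31 to 0.11 for Hoxd4, -0.16 to 0.12 for Hoxd9 and -0.34 to 0.50 for Hoxd10. The cause was not tested. With no background correction the HoxA and HoxB medians were both -0.25, and with the authors' values -0.29 and -0.31. Signal over background limits the genes numbered 11 to 13, Hoxb3, Hoxa9 and Hoxd3.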
